A study of Mus musculus with 35 samples.

Results

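The peroxiredoxins and thioredoxins of the mouse brain were examined here in A/J and C57BL/6J males. Every array probe was taken whose platform gene symbol was Prdx1, Prdx2, Prdx3, Prdx4, Prdx5, Prdx6, Txn1, Txn2 or Txnrd1, whatever its signal. This gave 9 probes of 7 of the 9 genes, out of 24620 probes in all, and no probe carried the symbols Prdx5 or Prdx6, which are not analysed here. Hippocampus and amygdala were punched from frozen brain slices of adult, untreated, test-naive males of 3 to 4 months, and the RNA was hybridized to Illumina MouseRef-8 arrays, on which each bead type carries 1 long oligonucleotide probe. There were 9 A/J hippocampus, 9 C57BL/6J hippocampus, 8 A/J amygdala and 9 C57BL/6J amygdala arrays, each from a mouse of its own within a group by the study's account, but the labels do not tie the 2 regions of a mouse together. Both are fully inbred strains, so the arrays of a strain differ by animal and not by genotype, and punches of a few sections stand for each region.

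Peroxiredoxins are thiol peroxidases that reduce hydrogen peroxide and organic peroxides with a reactive cysteine. The disulfide formed in this reaction is reduced by thioredoxin, and oxidized thioredoxin is reduced by thioredoxin reductase with electrons from NADPH. The family is spread over the cell: Prdx1 and Prdx2 act mainly in the cytosol, Prdx3 in mitochondria and Prdx4 in the endoplasmic reticulum, with Txn1 and Txnrd1 serving the cytosol and Txn2 the mitochondria. In the brain Prdx2 is known chiefly from neurons, and it is also one of the most abundant proteins of red blood cells.

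Levels below are normalized log2 signals. A probe was called detected on an array when its detection p, the chance of such a signal among negative control beads, was under 0.01. The number of probes detected per array was 6312 to 10722 in A/J hippocampus, 6099 to 9239 in C57BL/6J hippocampus, 6549 to 10751 in A/J amygdala and 6243 to 11039 in C57BL/6J amygdala, and no pair of arrays held identical values. The 10408 probes detected on at least 8 arrays were tested. A limma fit over the 4 groups gave the differences, with arrays taken as independent although both regions may come from the same mouse. A difference was called when its Benjamini-Hochberg adjusted p over all tested probes was under 0.01. Of the 9 member probes, 6 were tested. Those of Prdx1, Prdx3, Prdx4 and Txn2 and 1 of the Prdx2 probes were detected on all 35 arrays, the other Prdx2 probe was detected on 18, and both Txn1 probes and the Txnrd1 probe were detected on 0. The arrays lay on 11 chips whose IDs begin in 2 ways, and the 14 and 21 arrays of these sets are referred to as the first and second chip lot, a name that is not in the labels. Astrocyte, neuron, microglia and endothelial markers gave no calls by strain or region, while those of oligodendrocytes and of choroid plexus and meninges gave calls by region and those of red blood cells by strain. Of the tested hippocampus markers 3 of 4 were higher in hippocampus and 5 of 5 amygdala and striatum markers were lower there, in the direction of the tissue labels.

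The promoters of the members were searched for the core of the antioxidant response element, the site of the oxidative stress factor Nfe2l2, since several genes of this system are known targets of it. RefSeq windows of GRCm38.p6, from 250 bases before to 50 after the gene start, were found for 8 of the 9 genes. The motif searched was TGACNNNGC on either strand, which 12.4% of 32851 such windows held. It was present in the windows of 2 of the 8 genes, Prdx1 and Txnrd1, shown here on the plus strand with the match in capitals and 10 bases on each side, starting 133 and 92 bases before the gene start.
Prdx1, chr4:116685456-116685484: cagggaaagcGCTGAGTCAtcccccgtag
Txnrd1, chr10:82859104-82859132: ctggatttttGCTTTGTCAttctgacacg
Txnrd1 has 3 windows, and 1 of them held the match. The windows of Prdx2, Prdx3, Prdx4, Prdx5, Txn1 and Txn2 did not hold these letters. A match of this kind describes the sequence and does not show that a factor binds there.

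Prdx2, the cytosolic peroxidase of neurons and red blood cells, was the only member with a strain call. Both of its probes gave a lower signal in A/J than in C57BL/6J, in hippocampus and in amygdala, and neither differed by region beyond the threshold. The sizes of the strain difference at the 2 probes were far apart.

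Probe ILMN_1242829 had log2 values of 4.58, 4.66 and 4.75 (lowest, median and highest) in A/J hippocampus, against 8.79, 8.96 and 9.11 in C57BL/6J hippocampus. In the amygdala the values were 4.55, 4.67 and 5.06 in A/J, against 8.52, 9.04 and 9.19 in C57BL/6J. The strains did not overlap, and within a strain the ranges of the 2 regions overlapped. Detection was reached on 0 of 17 A/J and 18 of 18 C57BL/6J arrays, so the A/J values are at the background and give only a limit. In background-subtracted units the A/J signals were -3.9 to 26.1, against 107.4 to 975.9 in C57BL/6J. Set against the dimmest detected signal of each A/J array, the signal was at least 10.98-fold lower in A/J over both regions, at least 10.4-fold lower in hippocampus and at least 11.6-fold lower in amygdala. The probe entered the tested set only through the C57BL/6J arrays, so a strain difference was built into its selection. The fitted difference of -4.29 ± 0.0648 (SE, adjusted p = 1.24e-34 by limma) sets background values of A/J, with an SD of 0.114, against measured values of C57BL/6J. Its size, error and p therefore describe these normalized values and not a measured fold, and the size depends on how the background was treated.

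Probe ILMN_2638354 was detected on all 35 arrays, so here both strains had a signal above background. Its log2 values were 6.39, 6.75 and 7.54 (lowest, median and highest) in A/J hippocampus, against 8.17, 8.30 and 8.87 in C57BL/6J hippocampus. In the amygdala they were 6.15, 6.41 and 6.87 in A/J, against 8.14, 8.57 and 9.00 in C57BL/6J. The highest A/J array, from hippocampus, lay below the lowest C57BL/6J array, from amygdala. The means were 6.67 ± 0.383 in A/J (SD, n = 17) and 8.46 ± 0.255 in C57BL/6J (SD, n = 18). The signal was 3.49-fold lower in A/J, a log2 difference of -1.80 ± 0.105 (SE) with an adjusted p of 2.08e-16 by limma, 48th among the tested probes.

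Across all tested probes 5.95% were called by strain in either direction, 3.88% were called lower in A/J, and 0.999% were lower in A/J with ranges that did not overlap. The 2 Prdx2 probes met all of these conditions, ILMN_1242829 with A/J values at the background, and the other 4 tested member probes met none. Taken by region, 2.50% of probes were called lower in A/J within hippocampus and 2.56% within amygdala, again with both Prdx2 probes and no other member. Both Prdx2 probes stood on the study's list of the Magenta module, a set of co-expressed probes that was formed on these same arrays, so that membership is not independent of the values above.

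**Figure D1:**
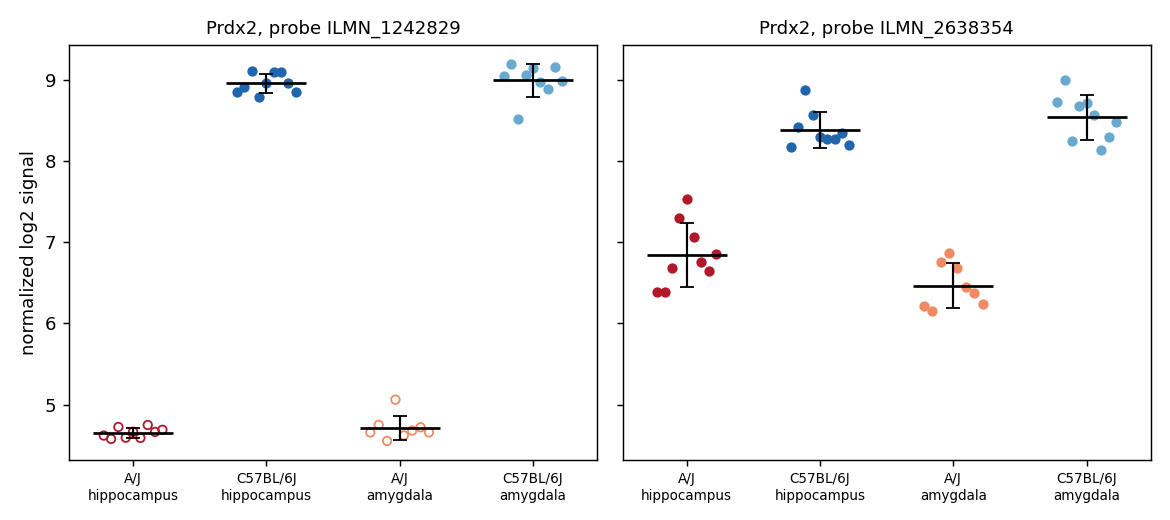
Normalized log2 signal of both Prdx2 probes on each of the 35 arrays, by strain and region. Filled points were detected and open points were not, the long bar is the group mean and the error bar its SD. The A/J points of probe ILMN_1242829 lie between 4.55 and 5.06, all undetected, and those of probe ILMN_2638354 between 6.15 and 7.54, all detected, with every C57BL/6J point of the same probe higher.

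The strain differences of the probes were compared on the arrays themselves. Since ILMN_1242829 was undetected on all A/J arrays, each of its A/J values was replaced by the limit of its array, a setting chosen after seeing the data. The log2 value of ILMN_1242829 minus that of ILMN_2638354 was then between -1.56 and -0.53 on the A/J arrays (n = 17, upper limits) and between 0.20 and 0.87 on the C57BL/6J arrays (n = 18), in ranges that did not overlap. The strain difference at ILMN_1242829 less that at ILMN_2638354 was thus -1.66 log2 units or further below 0, with p = 2e-05 in a two-sided permutation test of 100000 resamples, the smallest it can give. Within hippocampus this limit was -1.85 (exact permutation p = 4.11e-05) and within amygdala -1.47 (exact permutation p = 8.23e-05), both also the smallest these designs allow. The probe was tested only through its C57BL/6J detections, and its A/J values here are limits. These p-values follow in part from that selection and substitution, so only the bounds are read. With the background values left as they were, the value was -2.50 over all arrays, which is not a measured size. The study marked ILMN_1242829 in its probe list as containing a known single nucleotide polymorphism between the strains and did not so mark ILMN_2638354. The missing mark does not show that this probe matches both strains. The study sequenced top Magenta probes that lacked a known polymorphism and found sequence variants in most, where the probe matched C57BL/6J. Whether ILMN_2638354 was among them is not reported here. The paper proposes that the strain differences of this module are likely hybridization artifacts. It also reports that Magenta probes without a known polymorphism still clustered and separated the strains once the others were removed. For these it holds real strain differences possible, and in another dataset it found genuine effects of nearby variants on expression more often among them. The 3.49-fold is a difference in signal that is not shown to be a difference in transcript level. The part of sequence mismatch in either difference was not tested here, and the probe sequences are not analysed here.

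At ILMN_2638354 the strain difference was -1.54 ± 0.146 in hippocampus and -2.07 ± 0.151 in amygdala (SE, adjusted p 2.94e-10 and 2.47e-13 by limma). The A/J values were higher in hippocampus than in amygdala by 0.38 ± 0.151, while the C57BL/6J values were 0.16 ± 0.146 lower in hippocampus (SE). This interaction of 0.54 ± 0.210 (SE, adjusted p = 0.488, unadjusted p = 0.0150 by limma) did not pass the threshold, which 0.0673% of all probes did. At ILMN_1242829 the fitted strain differences were -4.30 in hippocampus and -4.28 in amygdala, but a difference between them could not be read, since A/J was at the background in both regions.

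Both strain differences were present within each chip lot. They were -4.34 ± 0.134 at ILMN_1242829 and -2.00 ± 0.235 at ILMN_2638354 in the first lot, and -4.29 ± 0.0994 and -1.75 ± 0.109 in the second (SE). With the chip as a random block they were -4.32 ± 0.0631 and -1.78 ± 0.0869 (SE). On all 7 chips that held both strains, the A/J mean was lower at both probes. Since the strain ranges did not overlap at either probe, the direction within each lot and chip was fixed beforehand. It therefore adds no support, and only the sizes at ILMN_2638354 are read. At ILMN_1242829 the A/J values were at the background, so its differences under these settings are not measured sizes. The study's own processed values, on a compressed log2 scale, gave -0.62 and -0.31, also past the threshold.

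**Figure D2:**
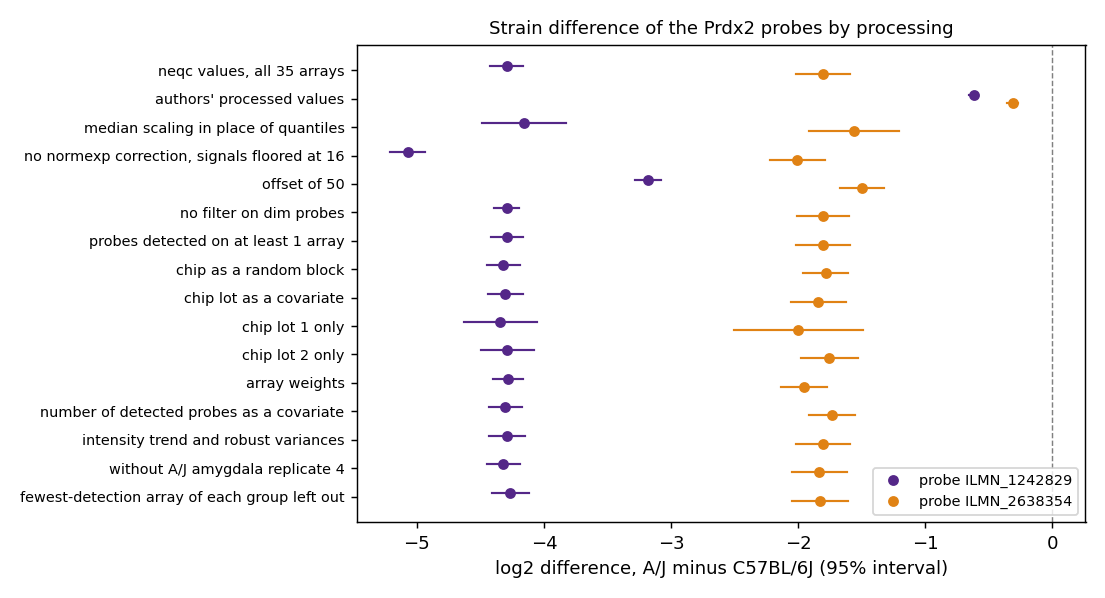
Strain difference of each Prdx2 probe in log2 units, A/J minus C57BL/6J, with its 95% interval under the neqc values and 15 other settings. All values are below 0, from -5.07 to -0.62 at ILMN_1242829 and from -2.01 to -0.31 at ILMN_2638354, and the 2 smallest come from the authors' processed values.

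Because Prdx2 is abundant in red blood cells, the red cell markers were read beside it. Of 9 marker genes 4 were tested, and they did not move together by strain. Alas2, which starts haem synthesis in red cell precursors, had a mean of 6.96 ± 0.700 in A/J and 7.01 ± 0.651 in C57BL/6J (SD), and Hba-a1, an alpha globin, had 12.8 ± 0.597 in A/J and 12.7 ± 0.586 in C57BL/6J (SD), with neither called. The beta globin probes differed in opposite directions. Hbb-b2, at least 5.39-fold higher in A/J, was seen on 17 of 17 A/J and 0 of 18 C57BL/6J arrays (adjusted p = 1.51e-13 by limma), whereas Hbb-bt was detected on 10 A/J and 18 C57BL/6J arrays and differed by -0.80 ± 0.183 (SE, adjusted p = 0.00209 by limma). The Hbb-b2 probe entered the tested set only through the A/J arrays. Its p sets background values of C57BL/6J against measured values of A/J and gives no independent support for the difference. Which beta globin genes each strain carries was not examined here, and the copies are near-identical. The beta globin probe signals are therefore not read as transcript levels of single genes. Their opposite directions are not read as a difference in red cell content. The summed level of the tested red cell markers, both beta globin probes included, was 4237 to 17029 in A/J and 2878 to 12102 in C57BL/6J. These ranges overlapped widely, and the part of blood in the Prdx2 signal was not tested. In tissue punches, fewer cells of a type and less RNA per cell cannot be told apart.

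By the likeness of their log2 values over the 35 arrays, the probes of other genes closest to ILMN_1242829 were those of Abhd16a, Chchd4 and Csrp1 (Pearson r = 0.991, 0.991 and 0.990). They were detected on 0, 2 and 1 of the 17 A/J arrays and on all 18 C57BL/6J arrays. Chchd4 takes part in the oxidative import of proteins into the mitochondrial intermembrane space. Closest to ILMN_2638354 were Srpr, Glrx and Tomm22 (r = 0.963, 0.961 and 0.959), with strain differences of -2.05, -4.48 and -4.74. Glrx is glutaredoxin, a small thiol reductase that draws on glutathione where thioredoxin draws on its reductase, detected on 14 of 17 A/J and 18 of 18 C57BL/6J arrays. After the group means were removed, the r of these 6 probes was between -0.09 and 0.56, and that between both Prdx2 probes was 0.31 against 0.947 over all arrays. The likeness over all arrays thus contains the strain difference of each probe, and all probes share these arrays.

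Prdx1, the other cytosolic peroxidase of the set, was called neither by strain nor by region. Its log2 values were 11.9, 12.2 and 12.8 (lowest, median and highest) in A/J hippocampus, against 11.5, 12.0 and 12.8 in C57BL/6J hippocampus. In the amygdala they were 11.9, 12.1 and 13.0 in A/J, against 12.0, 12.6 and 12.9 in C57BL/6J. All 4 groups overlapped. The strain difference was 0.01 with a 95% interval of -0.26 to 0.27, and the region difference was -0.09 with an interval of -0.35 to 0.18 (adjusted p 0.982 and 0.764 by limma), so a strain change of Prdx1 as large as that at either Prdx2 probe lies outside the interval.

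Prdx3, the mitochondrial peroxiredoxin, varied most among the members within a group, with SDs of 0.469 to 0.677. Its log2 values were 8.06, 8.36 and 9.49 (lowest, median and highest) in A/J hippocampus, against 7.31, 8.04 and 9.47 in C57BL/6J hippocampus. In the amygdala they were 8.09, 8.55 and 9.75 in A/J, against 7.63, 8.32 and 9.55 in C57BL/6J. The groups overlapped, with lower medians in hippocampus than in amygdala in both strains. The region difference was -0.46 ± 0.202 (SE, 95% interval -0.87 to -0.05, adjusted p = 0.130 by limma), and the strain difference was 0.32 ± 0.202 (SE, 95% interval -0.09 to 0.73, adjusted p = 0.398 by limma), neither past the threshold. With arrays weighted by their quality the region difference was -0.67 and passed it (adjusted p = 0.00438 by limma), and with the chip as a random block it was -0.49 (adjusted p = 0.0256 by limma). The array weights also raised the region calls over all 10408 tested probes from 1266 to 2126. Over the 15 other settings, the authors' compressed values included, the Prdx3 region difference was -0.67 to -0.16, with adjusted p up to 0.673 by limma. The hippocampus mean was lower on 9 of the 10 chips that held both regions. The strain difference was not alike in the chip lots, at 1.09 ± 0.287 in the first and -0.10 ± 0.252 in the second (SE, adjusted p 0.0526 and 0.935 by limma).

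Prdx4, the peroxiredoxin of the endoplasmic reticulum, passes the oxidizing power of peroxide to protein disulfide isomerases. Its log2 values were 9.02, 9.36 and 9.67 (lowest, median and highest) in A/J hippocampus, against 8.56, 9.16 and 9.86 in C57BL/6J hippocampus. In the amygdala they were 9.18, 9.48 and 9.98 in A/J, against 9.11, 9.47 and 10.3 in C57BL/6J. The values overlapped between all groups. The strain difference was 0.02 (95% interval -0.23 to 0.26, adjusted p = 0.938 by limma), and the region difference was -0.26 ± 0.120 (SE, 95% interval -0.51 to -0.02, adjusted p = 0.145 by limma). The region difference was -0.57 in the first chip lot and -0.12 in the second, past the threshold in neither.

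**Figure D3:**
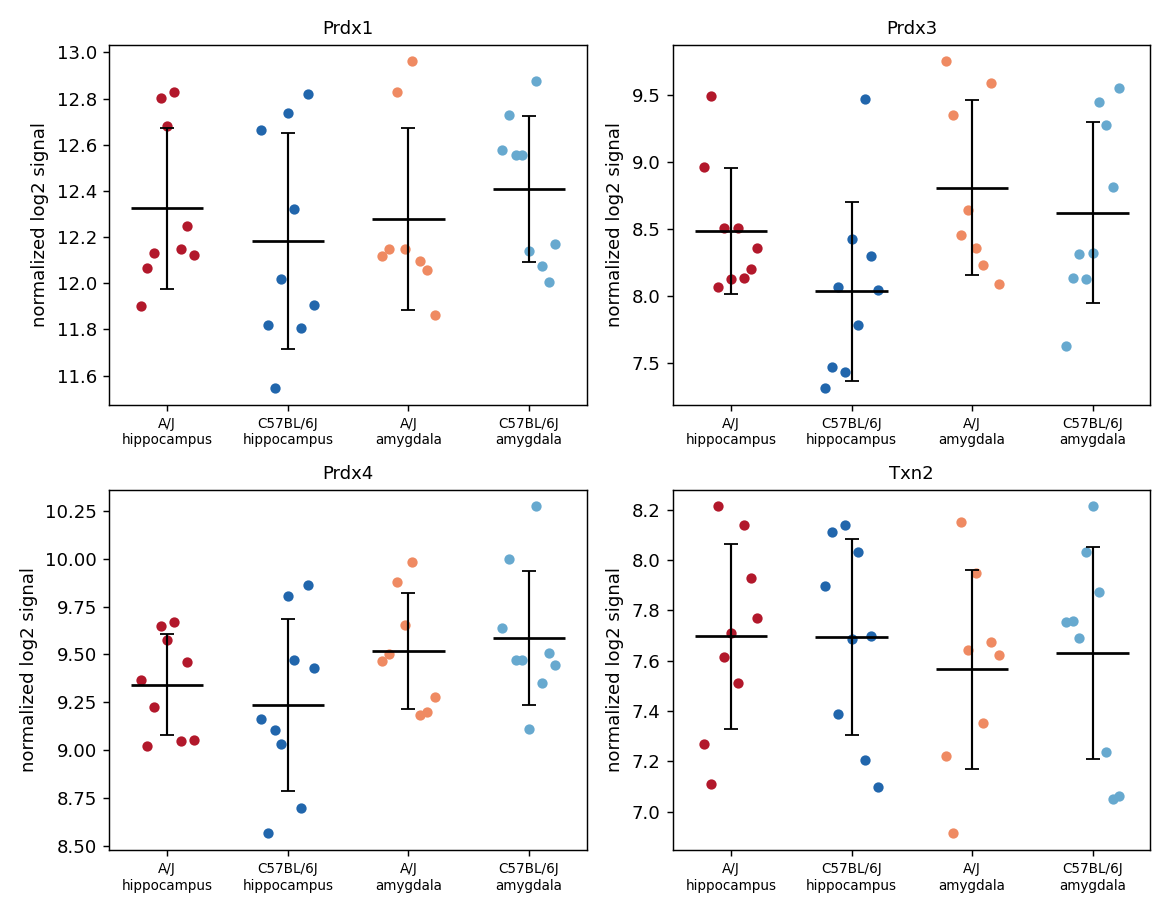
Normalized log2 signal of the Prdx1, Prdx3, Prdx4 and Txn2 probes on each of the 35 arrays, by strain and region, with group mean (long bar) and SD (error bar). Each panel has its own range, and in all 4 panels the groups overlap.

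Txn2, the thioredoxin of mitochondria and the electron donor of Prdx3, had log2 values of 7.11, 7.71 and 8.21 (lowest, median and highest) in A/J hippocampus, against 7.10, 7.70 and 8.14 in C57BL/6J hippocampus. In the amygdala they were 6.91, 7.63 and 8.15 in A/J, against 7.05, 7.75 and 8.21 in C57BL/6J. The groups covered almost the same range. The strain difference was -0.03 (95% interval -0.30 to 0.24) and the region difference 0.10 (95% interval -0.17 to 0.37), with adjusted p of 0.906 and 0.739 by limma.

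By region, 12.2% of all tested probes were called and 0 of the 6 tested member probes were, with 2 of them (Prdx3 and Prdx4) at an unadjusted p under 0.05, which 26.5% of all tested probes reached. In the interaction 0 members were called, with 1 at an unadjusted p under 0.05, the Prdx2 probe ILMN_2638354, against 7.75% of all tested probes. The median size of the region difference was 0.104 over the tested members and 0.158 over all tested probes.

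**Figure D4:**
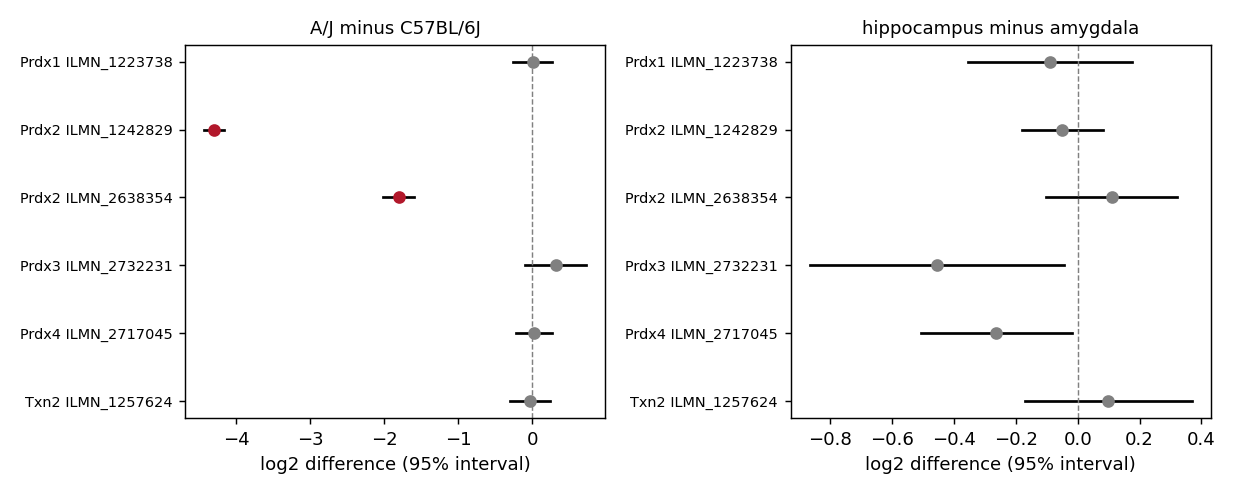
Log2 differences of the 6 tested member probes with 95% intervals, A/J minus C57BL/6J on the left and hippocampus minus amygdala on the right, red where called. The 2 panels have different scales, and only the Prdx2 probes, at -4.29 and -1.80 by strain, were called.

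Txn1, the cytosolic thioredoxin, and Txnrd1, the selenium-containing reductase that serves it, could not be followed on these arrays. The background-subtracted signal of Txn1 probe ILMN_2488988 was -6.6 to 12.2 on A/J arrays and -5.3 to 13.3 on C57BL/6J arrays, with a lowest detection p of 0.0810. The signal of Txn1 probe ILMN_2588054 was -20.3 to 20.6 on A/J arrays and -23.0 to 9.8 on C57BL/6J arrays, with a lowest detection p of 0.141. That of the Txnrd1 probe was -1.9 to 17.2 on A/J arrays and -2.5 to 26.4 on C57BL/6J arrays, with a lowest detection p of 0.0295. All 3 probes were not well above background on any of the 35 arrays, and they were not among the tested probes. Without the filter on dim probes none of the 3 was called by strain, region or interaction, with adjusted p of at least 0.277 by limma over background values. This limits only what these probes could measure and gives no level of either transcript.

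**Figure D5:**
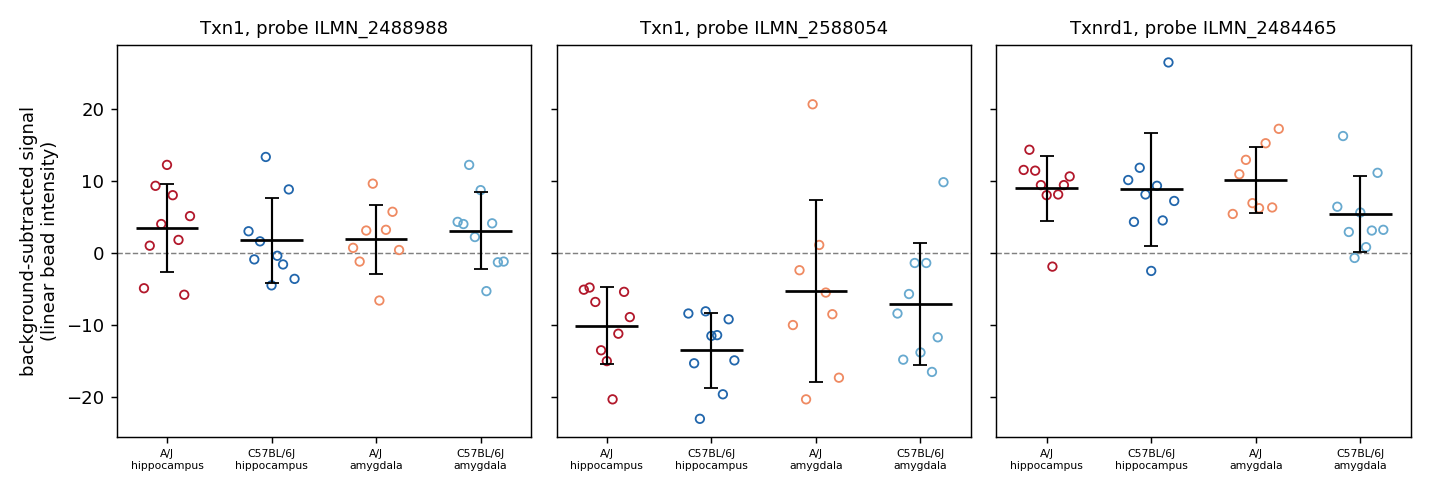
Background-subtracted linear signal of both Txn1 probes and the Txnrd1 probe on each of the 35 arrays, with group mean (long bar) and SD (error bar). Open points mark arrays without detection, which are all of them, and the signals lie around 0, between -23.0 and 26.4.

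The members also varied within groups, together with the number of probes detected per array. This relation was computed only for the 6 tested member probes, so it is not shown to be particular to them. Over the 35 arrays, with group means removed from both, Prdx1 followed that number inversely with Pearson r = -0.78 and Spearman rho = -0.75 (permutation p = 1e-05 for both, the smallest the resamples can give, adjusted p 6e-05 over 6 members). Leaving out the 2 arrays with the most extreme numbers gave r = -0.75, and r was -0.85 and -0.76 within the chip lots. The r of the other probes was -0.60 for Prdx2 ILMN_2638354, -0.57 for Prdx4, -0.48 for Txn2, 0.51 for Prdx3 and 0.17 for Prdx2 ILMN_1242829, with rho of -0.59, -0.57, -0.45, 0.52 and 0.15. Adjusted permutation p-values for r were 0.00051, 0.00092, 0.0048, 0.00288 and 0.344 in the same order, and for rho 0.00094, 0.00094, 0.0102, 0.00215 and 0.394. Without the 2 farthest arrays these 5 r values were -0.54, -0.53, -0.47, 0.53 and 0.09. Within the first chip lot they were -0.73, -0.67, -0.66, 0.74 and -0.04, and within the second -0.32, -0.55, -0.34, 0.28 and 0.41. With the number of detected probes as a covariate, both Prdx2 strain differences were still called and no other member was.

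Among the members themselves the closest pair within groups was Prdx1 and Prdx4 (r = 0.78, 0.67 and 0.85 within the chip lots), both of which were lower on arrays with more detected probes. The most opposed pair was Prdx3 and Txn2 (r = -0.64, -0.80 and -0.55 within the chip lots), which serve the same compartment. These correlations are given as a description over 35 arrays that share their depth, and the part of RNA quality or depth in them was not tested.

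The other genes of the pathway were read from lists, with 1 probe per gene. Beside the counts of each list stand the shares called over all tested probes, 5.95% by strain and 12.2% by region. Of 13 thioredoxin system partners 7 were tested, 0 were called by strain and 3 by region. Txnl1, a thioredoxin-like protein that binds the proteasome, averaged 7.30 ± 0.428 in hippocampus and 8.06 ± 0.437 in amygdala (SD), lower in hippocampus by 0.77 log2 units (adjusted p = 0.000113 by limma). Nxn, the thioredoxin-fold protein nucleoredoxin, averaged 8.19 ± 0.358 in hippocampus and 8.60 ± 0.274 in amygdala (SD, adjusted p = 0.00470 by limma). Txnrd2, the mitochondrial reductase of Txn2, went the other way with 6.93 ± 0.259 in hippocampus and 6.60 ± 0.213 in amygdala (SD, adjusted p = 0.00573 by limma). The call of Txnl1 held in the second chip lot but not in the first (adjusted p = 0.0621 by limma). The calls of Nxn and Txnrd2 did not hold within either chip lot or without the array with the fewest detected probes in each group. Srxn1, sulfiredoxin, which repairs overoxidized peroxiredoxins, was not called, with a strain difference of -0.02 and a region difference of 0.04.

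Of 10 other peroxide and superoxide enzymes 7 were tested, 0 were called by strain and 2 were lower in hippocampus. Gpx3, a secreted glutathione peroxidase, averaged 6.49 ± 0.461 in hippocampus and 8.75 ± 0.798 in amygdala (SD, difference -2.25 ± 0.212, SE, adjusted p = 1.18e-10 by limma). Gpx1, the glutathione peroxidase of the cytosol and mitochondria, averaged 10.2 ± 0.514 in hippocampus and 11.1 ± 0.358 in amygdala (SD, adjusted p = 3.88e-05 by limma). The call of Gpx3 held in both chip lots and that of Gpx1 in neither (adjusted p 0.0308 and 0.0105 by limma). Sod1 and Sod2, the superoxide dismutases that supply hydrogen peroxide in the cytosol and in mitochondria, had strain differences of -0.03 and 0.06 and were not called. Oligodendrocyte markers moved with region in the same direction as these genes: 4 of 5 tested (Mobp, Mag, Cnp and Mog) were lower in hippocampus, and their summed level was 6206 to 30847 in hippocampus and 11710 to 41508 in amygdala. Mobp, with a larger step in A/J as at Mag and Mog, averaged 9.48 in hippocampus and 11.04 in amygdala in A/J, against 10.08 and 10.45 in C57BL/6J. Cnp averaged 7.95 and 8.69 in A/J, against 8.08 and 8.67 in C57BL/6J. Gpx1 averaged 10.32 and 11.15 in A/J, against 10.14 and 11.01 in C57BL/6J. None of these markers was called in the interaction. The 4 tested choroid plexus and meninges markers had higher means in hippocampus, as Txnrd2 did, and 1 was called. Dcn, a matrix proteoglycan of the meninges, was higher in hippocampus by 1.23 (adjusted p = 1.67e-05 by limma), while Igf2 differed by 0.64 and Ttr, the transthyretin of the choroid plexus, by 0.69 (adjusted p 0.0103 and 0.647 by limma). The median region difference of these 4 was 0.67, against 0.00106 over all tested probes, and their summed level was 1322 to 14797 in hippocampus and 873 to 19677 in amygdala. The part of any of these cells in the region differences was not tested.

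Of 9 genes of oxidative folding in the endoplasmic reticulum, the pathway of Prdx4, 6 were tested. Pdia6, a disulfide isomerase with thioredoxin folds, averaged 6.41 ± 0.501 in A/J and 5.40 ± 0.546 in C57BL/6J (SD, difference 1.02 ± 0.172, SE, adjusted p = 3.21e-05 by limma), with detection on 14 of 17 A/J and 6 of 18 C57BL/6J arrays. By region P4hb, the main protein disulfide isomerase, averaged 10.1 ± 0.149 in hippocampus and 10.4 ± 0.171 in amygdala (SD, adjusted p = 0.000155 by limma), and Txndc5 averaged 8.53 ± 0.242 in hippocampus and 8.89 ± 0.263 in amygdala (SD, adjusted p = 0.00137 by limma). Neither region call held in either chip lot alone, and the strain call of Pdia6 held in the first lot but not in the second (adjusted p = 0.0286 by limma). Under median scaling, Gpx3 was the only one of the 7 pathway genes named by region that was still called, and all 7 kept their direction.

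In the Nfe2l2 pathway 10 of 18 genes were tested and 1 was called. Gsr, the reductase that restores glutathione as Txnrd1 restores thioredoxin, averaged 6.00 ± 0.444 in A/J and 5.36 ± 0.477 in C57BL/6J (SD, difference 0.65 ± 0.153, SE, adjusted p = 0.00314 by limma), with detection on 12 of 17 A/J and 9 of 18 C57BL/6J arrays. The undetected arrays of both strains enter with background values, so the size is uncertain. The call was not reached with the chip as a random block (adjusted p = 0.0105 by limma), with median scaling, in the authors' processed values or within a chip lot. Keap1, the inhibitor of Nfe2l2, was not called by strain or region, and Nfe2l2 itself was not detected on enough arrays to be tested. The median strain difference was 0.06 over these 10 genes and 0.05 over all tested probes.

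Of 10 thioredoxin substrates 4 were tested and of 5 genes of mitochondrial NADPH supply 3 were tested, with 0 calls by strain, region or interaction in either list. The median size of the strain difference was 0.307 and 0.249 log2 units over their tested genes, against 0.162 over all tested probes. The 4 probes of Nnt, the transhydrogenase that feeds NADPH to the mitochondrial thioredoxin system and is known to be disrupted in C57BL/6J, were detected on 0 arrays of either strain, so the strain difference in this gene could not be read here.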

How the data were processed

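By the study's methods, RNA of single mice was hybridized to separate arrays, and the authors read the signals out in BeadStudio, less the average of each array's negative control beads. The deposited table holds these linear signals, with no normalization between arrays from -55.4 to 37793.8 with 31.0% at or below 0, and a detection score, which is 1 minus the detection p. The deposited log2 values are the authors' own, made with Lumi by variance stabilization and robust spline normalization, and were used as an alternative. Here neqc of limma 3.58.1 in R 4.3.3 was run on the signals, that is, a normexp correction that takes the background from the detection p, an offset of 16, quantile normalization and log2. No count of reads exists for arrays, and the number of arrays limits precision. Groups were fitted as 4 means with moderated variances over 10408 probes. The fit was tested on simulated data. Permutations used SciPy 1.17.1. Gene symbols came from the platform annotation, which gives 1 symbol for 20984 probes, several for 1 and none for 3635. The members and lists were chosen with earlier results of these data known. Named were all member probes, from each list up to 3 called probes of smallest adjusted p by strain and by region, Nnt, and for each Prdx2 probe the 3 most alike probes of other genes. Other members of the lists and the red cell and oligodendrocyte markers were named beside these, after their values were seen. A list gene is read at its tested probe of highest mean. Where a strain had no detection, the limit is the mean of, per array, the higher of the dimmest detected signal and the probe's own. Alternatives changed the values used, the offset, the filter, the chip and lot terms, the array weights and the variance model, and 2 sets of arrays left out and the limit in the probe comparison were added after seeing the data.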

Additional observations from a re-analysis of the deposited data

Results flagged for a closer look

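In 6 of 36 groups of arrays examined over the 9 member probes, 1 array stood apart from the rest of its group by Dixon's criterion, which chance alone meets in about 1 in 20 groups. At Prdx2 ILMN_1242829, A/J amygdala replicate 4 was highest at 5.06, with the next array at 4.75 and none of the group detected, and C57BL/6J amygdala replicate 3 was lowest at 8.52, with the next at 8.89. At Txn1 ILMN_2488988, C57BL/6J amygdala replicate 3 was highest at 5.35. At the Txnrd1 probe, A/J hippocampus replicate 6 was lowest at 4.58, C57BL/6J hippocampus replicate 8 was highest at 6.18 and C57BL/6J amygdala replicate 2 was highest at 5.30. The Txn1 and Txnrd1 values are all undetected. Without A/J amygdala replicate 4 the Prdx2 strain differences were -4.32 and -1.83.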

How the results depend on the processing

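No paired analysis was possible because the labels carry no replicate numbers and tie no hippocampus sample to an amygdala sample. Where both regions came from the same mouse, the errors and p-values over both regions do not allow for it. Both Prdx2 strain differences, their count of 2 and the interaction count of 0 kept their side of the threshold under all 15 alternatives. The difference between the Prdx2 probes (-2.50) did so under its 7, at -3.08 to -0.31. Among these only the -1.66 with limits in place of undetected values is free of A/J background values. ILMN_1242829 was tested only through arrays of the other strain, and no A/J array detected it. Its kept call, its part in the count of 2 and the kept probe difference follow in part from that. They give no independent support, and only the bounds are read. ILMN_2638354, detected on all arrays, does not share this limit. The region count of 0 became 1 with array weights, through Prdx3. Uncalled values changed sign in these cases, with adjusted p of at least 0.409. For strain, Prdx1 (0.01) was -0.0894 with signals floored at 16, -0.0183 and -0.0132 in chip lots 1 and 2, -0.0601 with array weights and -0.00349 without the array of fewest detected probes per group. Prdx3 was -0.103 in lot 2. Prdx4 was -0.00344 in the authors' values, -0.00905 with the floor, -0.0914 in lot 2 and -0.0352 with array weights. Txn2 was 0.248 with median scaling, 0.0483 with the chip block, 0.124 in lot 2 and 0.0408 with detected probes as a covariate. For region, Prdx1 was 0.00988 with median scaling and 0.0109 in lot 2, Prdx2 ILMN_1242829 was 0.0194 with median scaling, and Prdx2 ILMN_2638354 was -0.00739 in the authors' values and -0.00633 in lot 1. For the interaction, ILMN_1242829 was 0.0201 in the authors' values, 0.0290 with the floor, 0.00964 with an offset of 50, 0.0416 and 0.00838 in lots 1 and 2 and 0.0292 without A/J amygdala replicate 4. Prdx3 was -0.156 in lot 1 and -0.284 with array weights, and Txn2 was -0.133 with median scaling.

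Median scaling moved the median strain difference of all tested probes to 0.23, against 0.05 with quantiles, so the Txn2 value there is close to that of all probes. Over all probes the strain calls numbered 619, against 399 with median scaling, 240 and 315 in lots 1 and 2 and 1765 with array weights. The region calls numbered 1266, against 737, 370, 683 and 2126 under the same settings, and the 7 interaction calls were 0 in lot 1, 1 in lot 2, 177 with array weights, 14 with detected probes as a covariate and 4 without the arrays of fewest detected probes. In lot 1, 78.3% of the strain calls were lower in A/J, against 65.3% in all arrays and 49.2% with array weights. The 7 pathway genes called by region and the 4 pathway and red cell genes called by strain (Gsr, Pdia6, Hbb-b2 and Hbb-bt) kept their direction in all settings and lost the call in 19 of 105 and 8 of 60 cases, with 11 and 5 of these within a single lot. Hbb-b2 and Pdia6 passed the detection filter only with their A/J detections, so their kept direction gives no independent support. For the other markers no alternatives were run. The cause of these changes was not tested, beyond the fewer arrays of a lot. Signal over background limits ILMN_1242829 in A/J to a bound and leaves Txn1 and Txnrd1 unmeasured.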
